A study of Mus musculus with 16 samples.

Results

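The loss of p21 in DN3 thymocytes that carry no oncogene was followed here across the transcriptome, by comparing 2 libraries from p21-/- mice with 3 from wild-type (WT) mice. These are 5 of the 16 samples of the series, taken by their genotype labels, and every gene of the count table was considered. Of 22114 listed genes, 11840 had enough reads to be tested, by a filter over all 9 libraries of the fit, transgenic ones included. With the 5 libraries alone, 11455 genes were tested. All mice were 6-week-old C57BL/6 animals, the p21-/- mice carried the null Cdkn1a allele in every cell, and each library came from DN3 cells pooled from several mice. A p21-/- replicate 3 that the labels name was not analysed here. Libraries of Lmo2Tg mice, which express Lmo2 from a CD2 transgene, and of Lmo2Tg;p21-/- mice (2 of each) shared the fit and served as a separate pair of groups that differ by p21.

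DN3 cells are T-cell progenitors of the thymus that lack CD4 and CD8, carry CD25 and rearrange the T-cell receptor beta locus before a burst of division. p21, the product of Cdkn1a, binds cyclin-dependent kinases and holds cells before S phase, and its gene is a classical target of p53. The question of this comparison is what p21 loss alone does to gene expression in DN3 cells, before any effect of the Lmo2 oncogene.

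The 5 libraries held between 15597042 and 16837667 reads counted on genes, and between 13639 and 14145 genes had at least 1 read. Values per gene are given as CPM, the reads of a gene scaled to a common library total by the TMM method. A count of 3 reads, taken as the floor of detection, equalled 0.176 to 0.191 CPM, and floors and counts carry counting error only. Genes of DN3 cells were read in all 5 libraries. Il2ra, which encodes CD25, ranged from 1426 to 1689 CPM, Rag1 from 1180 to 1580 CPM and Ptcra, the pre-T-cell receptor alpha chain, from 132 to 186 CPM. Cd4 ranged from 2.66 to 7.39 CPM, highest in p21-/- replicate 1. The 29 listed DN3 genes summed to 18180 to 19414 CPM. Listed genes of the later double-positive and single-positive (DP and SP) stages, Cd4 among them, summed to 1116 to 1264 CPM.

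Cdkn1a itself (ENSMUSG00000023067, chromosome 17 from 29090976 to 29100727, GRCm38) was measured at 36.5, 37.5 and 49.0 CPM in WT replicates 1 to 3 and at 14.3 and 17.7 CPM in p21-/- replicates 1 and 2. All WT values lay above both p21-/- values, so the gene went the way of the labels. The mean fell from 41.0 ± 6.93 (SD, n = 3) to 16.0 ± 2.42 CPM (SD, n = 2), or to 39.0% of WT, with a log2 fold change of -1.36 (standard error 0.16, adjusted p = 0.0082 in edgeR's quasi-likelihood test). Reads were thus still counted on the gene in p21-/- cells, 244 and 280 of them. Which part of the gene the null allele lacks was not given in the sources used here, and the table gives 1 count per gene. With p21-/- replicate 1 or 2 left out the adjusted p became 0.093 or 0.056, with log2 fold changes of -1.22 and -1.52.

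Very little else changed. At an adjusted p under 0.05 and a change above 2-fold, 12 of the 11840 genes were called (0.101%), 5 of them higher (0.0422%) and 7 lower (0.0591%) in p21-/- cells, and 1 more gene was called at a smaller fold, which made 13 (0.11%), 6 of them higher (0.0507%). The test found 391 genes (3.3%) with an unadjusted p under 0.05. The count at any fold was 10 to 11 when a WT library was left out, 18 without p21-/- replicate 1 and 8 without p21-/- replicate 2. DESeq2 called 20 genes at any fold.

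The data limited most genes to small changes. For 10390 genes (87.8%) the 95% interval of the fold change lay wholly inside 2-fold in either direction, and for 8199 (69.2%) it lay inside 0.5 on the log2 scale. The precision followed the level of expression. Among 2572 genes at 100 CPM or more, 99.7% had an interval inside 2-fold, and the median interval reached 0.19 on the log2 scale to either side. From 10 to 100 CPM, 6067 of 6126 genes had such an interval. Among 2187 genes from 1 to 10 CPM the share was 78.2%, and among 955 genes under 1 CPM it was 5.24%. For most genes under 1 CPM a 2-fold change was therefore not detectable at this depth and number of libraries.

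The called genes lay close to one another in the genome. Of the 13, 11 were on chromosome 17, which holds 633 of the tested genes (5.35%), and all 11 started at a distance of -5.25 to 1.53 Mb from the start of Cdkn1a. Their span of 7.04 Mb, from 23836785 to 30877365, held 139 tested genes. Chromosome 17 held 8 to 9 of the 10 to 11 genes called with a WT library left out, 9 of 18 without p21-/- replicate 1 and 6 of 8 without p21-/- replicate 2. The share of called genes was 4.57% of 197 genes within 5 Mb of Cdkn1a, 1.46% of 137 genes from 5 to 10 Mb away, 0 of 299 genes farther along chromosome 17 and 2 of 11175 genes (0.0179%) on other chromosomes.

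Among genes with a known position, weaker differences were also most frequent near Cdkn1a. An unadjusted p under 0.05 was found for 19.3% of genes within 5 Mb of Cdkn1a, 10.9% from 5 to 10 Mb, 2.02% from 10 to 20 Mb, 6.5% farther along chromosome 17 and 2.84% on other chromosomes. The share was 18.8% of the 32 tested genes without a known position. The p21-/- libraries did not overlap the WT libraries for 37.1% of the genes within 5 Mb, 26.3% from 5 to 10 Mb and 18.2% from 10 to 20 Mb. This share was 24.5% beyond 20 Mb on chromosome 17, 19.0% on other chromosomes and 34.4% without a known position. Over all tested genes it was 19.5% (9.91% with p21-/- above and 9.62% with p21-/- below WT). The next 4 genes below the threshold, Abca3, Baiap3, Grm4 and Tff3, with adjusted p-values from 0.055 to 0.099, were also within 5 Mb of Cdkn1a. DNA that came with the null allele and p21 loss itself were carried by the same mice, so the effect of one on these neighbours cannot be told apart from that of the other.

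**Figure D1:**
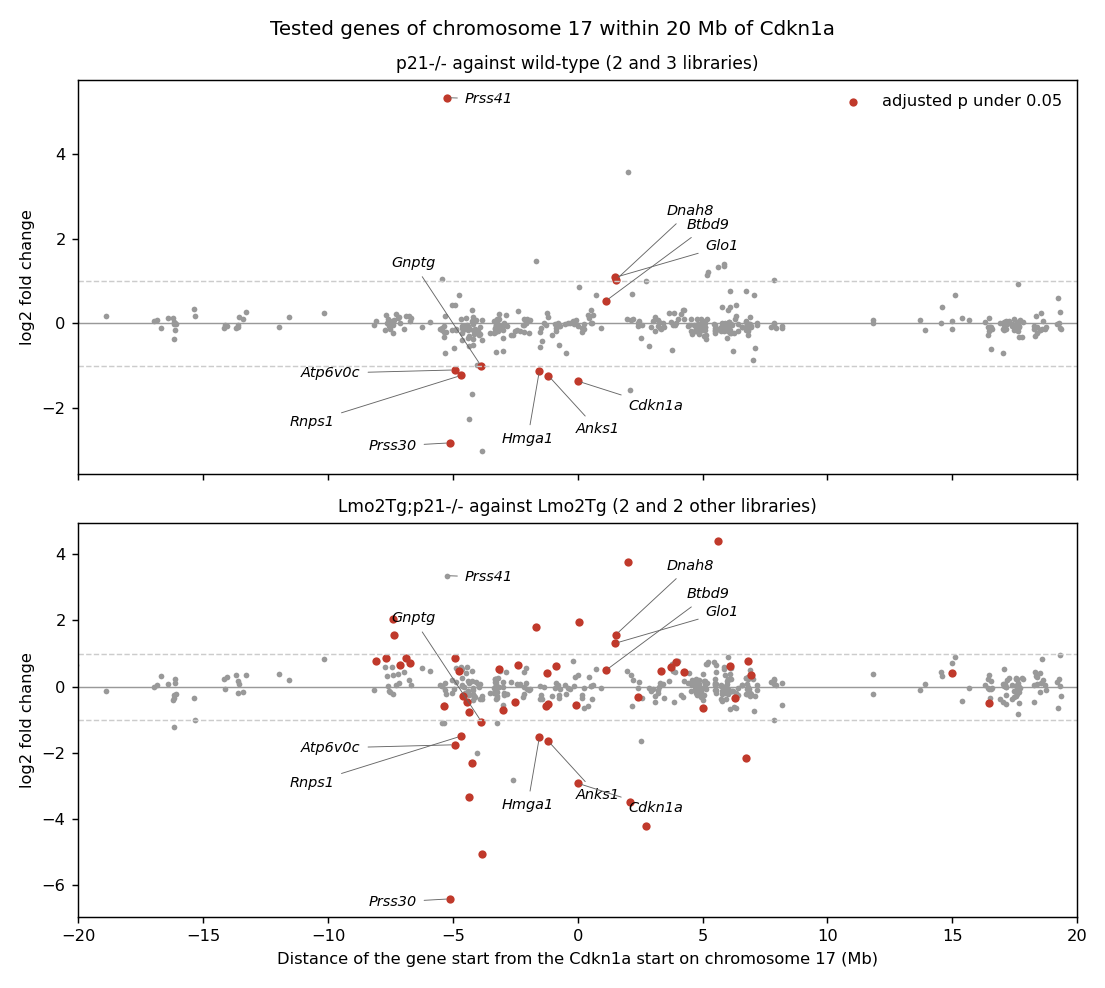
Log2 fold change (vertical axis) of each tested gene of chromosome 17 within 20 Mb of Cdkn1a against the distance of its start from that of Cdkn1a in Mb (horizontal axis), for p21-/- against WT (top) and Lmo2Tg;p21-/- against Lmo2Tg (bottom), with genes at an adjusted p under 0.05 in red and dashed lines at 2-fold. The 11 genes called in the top panel all lie between -5.25 and 1.53 Mb and are named in both panels. The value of Prss30 in the bottom panel was fitted with 0 reads in both Lmo2Tg;p21-/- libraries and is no measure of size.

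Besides Cdkn1a, 6 genes of this stretch were lower in p21-/- cells. Anks1, an adaptor protein with ankyrin repeats (27909306 to 28062775), had 251, 254 and 244 CPM in WT and 121 and 92.3 CPM in p21-/- libraries. Rnps1, an RNA-binding splicing and surveillance factor (24414565 to 24425901), had 122, 124 and 144 CPM in WT and 54.2 and 57.0 CPM in p21-/-. In both genes every p21-/- library lay below every WT library. Anks1 changed by -1.23 (standard error 0.12, adjusted p = 0.0019) and Rnps1 by -1.23 (standard error 0.10, adjusted p = 5.7e-04) on the log2 scale in edgeR's quasi-likelihood test.

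Hmga1, an AT-hook protein of chromatin (27556497 to 27563674), had 241, 235 and 293 CPM in WT and 122 and 115 CPM in p21-/- libraries. Atp6v0c, the proteolipid subunit of the proton pump of lysosomes (24163866 to 24169702), had 46.3, 49.2 and 52.4 CPM against 21.8 and 24.4 CPM. Gnptg, a subunit of the enzyme that tags lysosomal hydrolases with mannose phosphate (25233331 to 25240124), had 20.5, 22.8 and 23.4 CPM against 11.8 and 10.2 CPM. None of the 3 genes overlapped between the genotypes, and their log2 fold changes were -1.11 (adjusted p = 0.0019), -1.10 (adjusted p = 6.0e-04) and -1.01 (adjusted p = 0.0068) in edgeR's quasi-likelihood test. Without p21-/- replicate 2 the adjusted p was 0.058 for Hmga1 and 0.14 for Gnptg, and with the replicate number as a block it was 0.067 for Gnptg. Reads of Hmga1 can also match other places in the genome, which makes its change uncertain.

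Among the called genes the steepest fall was that of Prss30, a serine protease (23972126 to 23980566), from 8.27, 9.35 and 8.77 CPM in WT to 1.58 and 0.886 CPM in p21-/- libraries. No p21-/- library came near the WT range, and their mean was 1.23 ± 0.493 CPM (SD, n = 2). Fitted on the 5 libraries alone, its log2 fold change was -2.81 (95% interval -3.40 to -2.24, adjusted p = 0.0025 in edgeR's quasi-likelihood test). Exons of Anks1, Hmga1 and Gnptg share positions with genes on the other strand, such as Taf11 for Anks1 and Unkl for Gnptg, as do exons of Cdkn1a, Btbd9, Glo1 and Dnah8. The counting was not stated to use strand, so reads of such partners cannot be told apart from their own.

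The 4 genes that were higher formed a cluster on the far side of Cdkn1a, with 1 exception. Glo1, the glyoxalase that clears methylglyoxal (30584936 to 30626871), rose from 55.7, 51.1 and 55.8 CPM in WT to 110 and 120 CPM in p21-/- libraries. Dnah8, an axonemal dynein heavy chain (30624354 to 30877365), was at 202, 209 and 136 CPM in WT and at 393 and 353 CPM in p21-/- libraries. Btbd9, a BTB-domain protein (30215524 to 30576488), was at 37.2, 38.5 and 38.5 CPM against 56.6 and 53.4 CPM.

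These 3 neighbours, which start 1.12, 1.49 and 1.53 Mb after Cdkn1a in the order Btbd9, Glo1 and Dnah8, had no overlap between genotypes. The log2 fold changes were 1.09 for Glo1 (standard error 0.08, adjusted p = 1.5e-04), 1.03 for Dnah8 (standard error 0.16, adjusted p = 0.041) and 0.53 for Btbd9 (standard error 0.07, adjusted p = 0.021) in edgeR's quasi-likelihood test. Glo1 kept its call in all 12 alternative fits that gave it a value. Btbd9 lost its call in 7 of 12 fits, among them each fit without 1 of the 5 libraries (adjusted p from 0.052 to 0.16), and Dnah8 lost it in 4, with an adjusted p of 0.10 without WT replicate 1 and of 0.18 and 0.22 without p21-/- replicates 1 and 2.

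The exception was Prss41, a serine protease at the other end of the stretch (23836785 to 23844172), near Prss30. It had 0, 1 and 2 reads in WT libraries and 35 and 56 reads in p21-/- libraries, or 2.05 and 3.54 CPM. Against the floor of 3 counts in a WT library, the lower p21-/- library was at least 10.8-fold higher (adjusted p = 0.023 in edgeR's quasi-likelihood test). Its reads were also few in Lmo2Tg libraries (0 and 3), so it passed the low-count filter only through libraries that lack p21, where it was high. Its p-value is therefore not independent of the filter. The call was lost without any 1 of the WT libraries and without p21-/- replicate 2 (adjusted p from 0.13 to 0.26), and exons of Prss32 on the other strand overlap the gene.

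**Figure D2:**
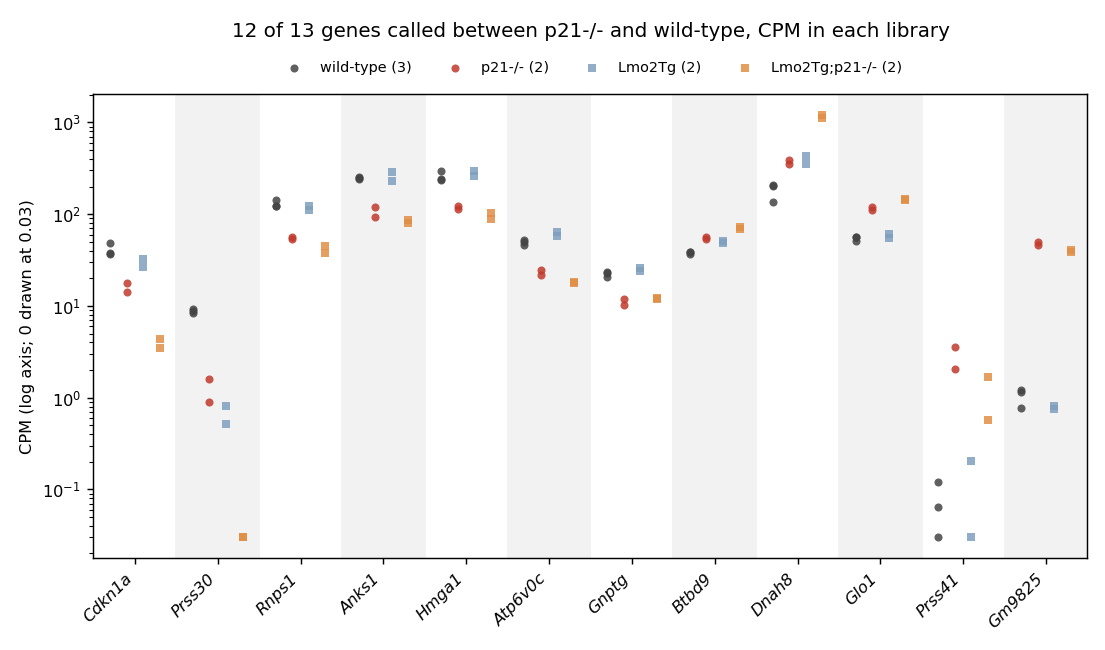
CPM on a log axis in each of 9 libraries for 12 of the 13 genes called between p21-/- and WT, with 1 point per library, and with libraries at 0 drawn at 0.03. For each gene both p21-/- points lie on one side of all 3 WT points, and the Lmo2Tg;p21-/- points lie on the same side of the Lmo2Tg points.

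The other 2 of the 13 called genes lay outside chromosome 17, and 1 of them is described here. Gm9825 (ENSMUSG00000096403, chromosome 6 from 7982541 to 7983383) is a near-identical copy of Rnps1, which it matches over 843 coding bases with 5 mismatches. A copy of at least 200 bases and 99% identity elsewhere in the table was found for 2.94% of the tested genes with a known transcript. The sequences are shown because reads from such copies can hardly be assigned to one or the other. The lines give 300 bases of the match of Rnps1 (coding bases 283 to 582) and Gm9825, with the 3 mismatches in this stretch in capitals. Both are from GENCODE M21 transcripts (GRCm38), 5′ to 3′ on the coding strand.
Rnps1: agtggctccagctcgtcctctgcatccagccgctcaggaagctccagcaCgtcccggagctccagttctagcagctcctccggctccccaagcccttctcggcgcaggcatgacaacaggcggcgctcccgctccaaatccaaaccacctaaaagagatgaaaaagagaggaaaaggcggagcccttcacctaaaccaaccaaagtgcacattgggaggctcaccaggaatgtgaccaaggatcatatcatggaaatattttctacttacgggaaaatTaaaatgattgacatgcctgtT
Gm9825: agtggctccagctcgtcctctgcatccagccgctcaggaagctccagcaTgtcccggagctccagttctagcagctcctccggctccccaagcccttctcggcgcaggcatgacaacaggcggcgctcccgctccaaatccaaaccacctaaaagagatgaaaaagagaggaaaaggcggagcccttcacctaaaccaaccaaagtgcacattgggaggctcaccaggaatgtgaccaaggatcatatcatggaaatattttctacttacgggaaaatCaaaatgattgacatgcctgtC

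The counts on Gm9825 were near 1 CPM in WT and far higher in p21-/- libraries. It was at 1.23, 0.763 and 1.15 CPM in WT and at 46.0 and 49.5 CPM in p21-/- libraries, with no overlap. It changed by 5.50 on the log2 scale (standard error 0.18, adjusted p = 1.7e-08 in edgeR's quasi-likelihood test). Gm9825 also passed a test for a change beyond 2-fold itself (glmTreat), which 2 genes passed in all, and it kept its call in each of the 11 alternatives that gave it a value.

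Gm9825 was higher where Rnps1 was lower. Rnps1 was lower by 74.5 CPM and Gm9825 higher by 46.7 CPM. Of the reads on the pair, Gm9825 took 0.612% to 0.995% in WT libraries and 45.9% and 46.5% in p21-/- libraries, and it took 47.3% in the lower of both Lmo2Tg;p21-/- libraries. With the counts of Rnps1 and Gm9825 summed, the pair was not called: it differed by -0.34 (95% interval -0.55 to -0.13) on the log2 scale, with an adjusted p of 0.98 in edgeR's quasi-likelihood test. The summed pair was called in Lmo2Tg;p21-/- against Lmo2Tg, at -0.55 (adjusted p = 0.016). The changes of Rnps1 and Gm9825 one by one are therefore uncertain, and how the reads were divided between them was not tested.

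Most genes next to Cdkn1a did not pass the test. Of 30 tested genes within 1 Mb, 1 was called, Cdkn1a (3.33%, against 0.11% of all tested genes). An unadjusted p under 0.05 was found for 5 (16.7%, against 3.3%). The genotypes did not overlap for 11 (36.7%, against 19.5%). An interval inside 2-fold was found for 25 (83.3%, against 87.8%), and the median log2 fold change was -0.0058. The 4 with the smallest p after Cdkn1a were Cpne5, Mdga1, Gm28043 and Def6. Cpne5, a calcium-dependent phospholipid-binding protein whose start lies 64.6 kb from that of Cdkn1a, had 12.8, 12.3 and 14.6 CPM in WT and 23.6 and 24.5 CPM in p21-/- libraries. The genotypes did not overlap, the log2 difference was 0.86 (95% interval 0.46 to 1.26), and the adjusted p was 0.31 in edgeR's quasi-likelihood test and 0.0090 in DESeq2. Mdga1 (log2 difference 0.67), Gm28043 (0.33) and Def6 (-0.18) each had an adjusted p of 0.98.

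The same genes were then read in the other pair of genotypes that differ by p21, Lmo2Tg;p21-/- against Lmo2Tg, which shares no library with p21-/- and WT. That comparison called 822 genes at any fold (6.94%) and 222 above 2-fold (1.88%). All 13 genes had the same direction there and 12 were called, Prss41 being the exception (adjusted p = 0.059 in edgeR's quasi-likelihood test). Gm9825 changed by 5.64 on the log2 scale, Hmga1 by -1.52, Anks1 by -1.64, Atp6v0c by -1.76, Glo1 by 1.31 and Gnptg by -1.06. Rnps1 was at 112 and 124 CPM in Lmo2Tg and at 38.2 and 45.3 CPM in Lmo2Tg;p21-/- libraries. Prss30 had 7 and 12 reads in Lmo2Tg libraries and 0 in both Lmo2Tg;p21-/- libraries. A test of the difference between the 2 comparisons gave an adjusted p under 0.05 for 163 genes (1.38%), 95 of them above 2-fold (0.802%), and for 1 of the 13, Cdkn1a. The count above 2-fold was 0 without WT replicate 1 or 3, 56 without WT replicate 2, 259 without p21-/- replicate 1 and 16 without p21-/- replicate 2, and the call of Cdkn1a was lost without any 1 of the WT libraries or p21-/- replicate 2.

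Genes near Cdkn1a that missed the threshold also tended to keep their direction. Of 42 genes within 10 Mb that were not called but had an unadjusted p under 0.05 in p21-/- against WT, 32 (76.2%) had the same direction in the transgenic pair, and 20 (47.6%) also had a p under 0.05 there. Of 315 such genes on other chromosomes, 142 (45.1%) had the same direction and 29 (9.21%) also a p under 0.05, while 67 had a p under 0.05 in the opposite direction. Over all tested genes of these zones, called or not, 56.3% and 47.0% had the same direction.

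By the median, the nuclear chromosomes apart from Y barely moved, chromosome 17 included. The median log2 fold change ranged from -0.03 to 0.05 over the 19 other nuclear chromosomes apart from Y, each with 281 to 991 tested genes, and it was -0.04 on chromosome 17. The share of genes with an unadjusted p under 0.05 ranged from 1.47% on chromosome 12 to 5.96% on chromosome X, against 10.7% on chromosome 17. With the genes of chromosome 17 left out of the fit, 2 genes were called among 11207, Gm9825 being one of them.

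Of 451 tested genes in 20 lists drawn up for the cell cycle, the p53 pathway, thymocyte stages, other cell types and stress, 1 was called at any fold, Cdkn1a, where 0.11% of all tested genes were called. DESeq2 and limma-voom called no further member of the lists. Other fits did: Hbb-bs was called without the filter on low counts, Fos, Hspa1a and Hspa1b with the replicate number as a block, and Hba-a1, Hba-a2, Hbb-bs and Nfkbia without p21-/- replicate 1. Among the CDK inhibitors, Cdkn1b, which encodes p27, was at 107, 108 and 83.3 CPM in WT and at 91.5 and 121 CPM in p21-/- libraries, with overlap. Cdkn1c, which encodes p57, was near 1 CPM or below in every library, with a log2 difference of 0.69 (95% interval -0.39 to 1.79). Cdkn2a and Cdkn2b were at 3 reads or fewer in each library, so no fold is given.

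The 31 tested genes of G1/S control, among them targets of the kinases that p21 inhibits, had a median log2 fold change of 0.0091, against -5.7e-04 for all tested genes, and all 31 intervals lay inside 2-fold. Their extremes were Lin52 (-0.25), a subunit of the DREAM complex, and Rb1 (0.15), the retinoblastoma protein. The 32 tested p53 targets had a median of -0.0098, with 15 higher and 17 lower, from Zmat3 (-0.36) to Plk2 (0.91). Plk2 ranged from 0.0605 to 2.29 CPM within WT alone. Trp53 itself was at 242, 240 and 299 CPM in WT and at 247 and 245 CPM in p21-/- libraries, with overlap.

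The machinery of replication, splicing and protein turnover was measured within narrow limits. These lists were ones the study itself examined. All 50 tested genes of DNA replication had an interval inside 2-fold, with a median of 0.017 and extremes in Pole4 (-0.14) and Pola1 (0.21), both subunits of DNA polymerases. All 84 spliceosome genes did so too, with a median of 0.0049 and a range from Lsm7 (-0.22) to Dhx38 (0.16), and so did all 43 proteasome genes, with a median of -0.058 and a range from Psme2 (-0.16) to Psmc6 (0.12). In the transgenic pair the medians of these 3 lists were -0.15, -0.20 and -0.17, against 0.018 for all tested genes. Of their genes 0, 9 and 0 were called, all lower, where 6.94% of all tested genes were called.

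Of 39 genes of mitosis, 33 were higher and 6 lower, with a median of 0.09, a range from Ccnf (-0.14) to Cenpf (0.36), 1 unadjusted p under 0.05 and all 39 intervals inside 2-fold. Their summed level was 6120, 5818 and 5510 CPM in WT and 6123 and 6981 CPM in p21-/- libraries, so p21-/- replicate 1 lay with WT replicate 1. Both p21-/- libraries lay above all WT libraries for 7 of the 39 and below them for 0, against 9.91% and 9.62% of all tested genes. The 29 DN3 genes had a median of -0.04 and ran from Dtx1 (-0.18), a Notch target, to Cd2 (0.31). The 12 tested genes of the BCL2 family ran from Bmf (-0.27) to Pmaip1 (0.45), both of which promote cell death.

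Markers of other cell types and interferon-stimulated genes had no called member either, where 0.11% of all tested genes were called. The 5 tested erythroid genes had a median log2 difference of 2.25, from Hbb-bt (1.78) to Hbb-bs (2.77), and an unadjusted p under 0.05 each, and their summed level was 1.94 to 5.79 CPM in WT, 5.75 CPM in p21-/- replicate 1 and 33.9 CPM in p21-/- replicate 2. With p21-/- replicate 1 left out, 3 of them were called (Hba-a1, Hba-a2 and Hbb-bs). Of 19 interferon-stimulated genes 18 were higher, up to Ifit3 (0.45), with 1 unadjusted p under 0.05 and 17 intervals inside 2-fold. Their summed level was 514, 503 and 501 CPM in WT and 546 and 536 CPM in p21-/- libraries, and 8 of the 19 had both p21-/- libraries above all WT libraries, against 9.91% of all tested genes. Markers of myeloid and dendritic cells ran from Cd68 (-0.55) to S100a8 (2.24), with a median of 0.30, 10 of 13 higher and 3 with an unadjusted p under 0.05. Their sum ranged from 67.1 to 74.6 CPM in WT and from 74.2 to 76.4 CPM in p21-/- libraries. B-cell markers ran from Vpreb1 (-0.33) to H2-Eb1 (1.20), with a median of 0.61, 7 of 9 higher and 2 with an unadjusted p under 0.05. They summed to 48.8 to 53.2 CPM in WT and to 49.9 to 54.6 CPM in p21-/- libraries. H2-Eb1, which had such a p, starts 5.21 Mb from Cdkn1a on chromosome 17. From 5 to 10 Mb away, 10.9% of genes had such a p, against 2.84% on other chromosomes. Whether the rise of H2-Eb1 and H2-Aa went with their position or with B-cell content was not tested. Both p21-/- libraries lay above all WT libraries for 5 of the 13 myeloid and 4 of the 9 B-cell markers. In sorted bulk cells, a change in the share of such cells and a change in RNA per cell cannot be told apart.

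**Figure D3:**
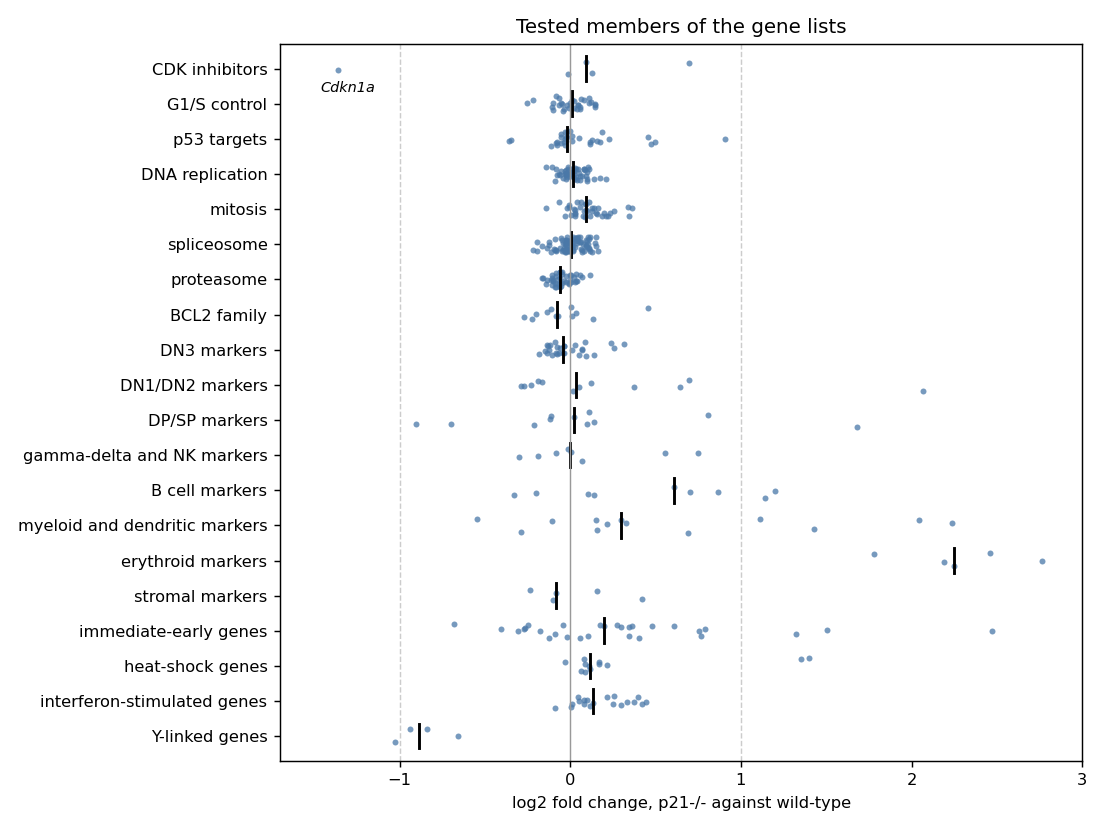
Log2 fold change of p21-/- against WT (horizontal axis) for the tested members of the 20 gene lists (rows), 1 point per gene, with the median of each row as a black bar and dashed lines at 2-fold. Cdkn2a, Cdkn2b and Perp, at 3 reads or fewer in each library, are not drawn. The lists of cell cycle, splicing and proteasome lie close to 0, while lists of weakly expressed or stress-responsive genes spread widely.

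The remaining lists of other cell types and thymocyte stages had no called member, where 0.11% of all tested genes were called. Intervals lay inside 2-fold for 8 of 12 tested DN1 and DN2 genes and 6 of 11 DP and SP genes. The same held for 5 of 8 gamma-delta T and NK genes and 3 of 5 stromal genes. Genes of DN1 and DN2 cells ran from Nfe2 (-0.29) to Mpo (2.07), genes of DP and SP cells from Ccr7 (-0.90) to S1pr1 (1.68), genes of gamma-delta T and NK cells from Id3 (-0.30) to Zbtb16 (0.75) and stromal genes from Epcam (-0.23) to Ccl25 (0.42). The high values of Mpo, S1pr1 and Nr4a3 rested on p21-/- replicate 2, which had 1.58, 3.23 and 54.6 CPM of them against 0.234, 0.821 and 2.93 CPM in p21-/- replicate 1. WT libraries had up to 0.382, 0.919 and 6.81 CPM of these genes. Nfkbia, an inhibitor of NF-kB, was likewise at 134 CPM in p21-/- replicate 2 and at 25.5 to 33.9 CPM in the other 4 libraries.

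The spread between replicates was of the order of the difference between genotypes. Over all tested genes, the median absolute log2 difference between a pair of libraries was 0.075 to 0.18 for the 3 pairs of WT libraries, 0.13 for the pair of p21-/- libraries and 0.086 to 0.20 for the 6 pairs that crossed genotypes. WT replicates 1 and 2 were the closest pair. The biological coefficient of variation that edgeR estimated was 10.1%, both over all 9 libraries and over the 5.

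By this measure WT replicate 3 stood farther from the other libraries than either p21-/- library did. Its median absolute difference was 0.16 and 0.18 from the other WT libraries, while p21-/- replicate 1 differed from WT replicates 1 and 2 by 0.086 and 0.091. Counts of WT replicates 1 and 2 differed by 2.74 times the variance that read sampling gives, and those of the other WT pairs by 19.4 and 18.5 times. The p21-/- pair stood at 10.5 times, and pairs across genotypes were not measured this way. No pair within a genotype was close enough to be taken for 1 library listed under different names. In a principal component analysis the first axis, which held 48.4% of the variance, ran from -24.0 in p21-/- replicate 2 to 29.5 in WT replicate 3 with the other libraries between -6.48 and 6.18. The next axis placed WT replicates 1 and 2 at 13.7 and 13.9, WT replicate 3 at -2.42 and the p21-/- libraries at -12.3 and -12.9.

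**Figure D4:**
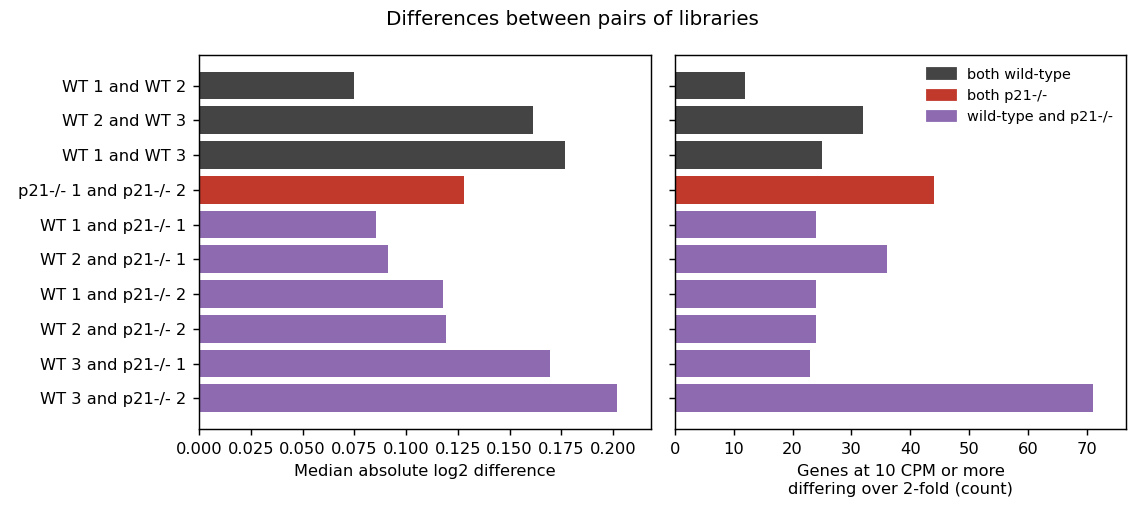
For each of the 10 pairs of libraries, the median absolute log2 difference over tested genes (left bars) and the number of genes at 10 CPM or more that differed over 2-fold (right bars, of 8698 genes), coloured by whether the pair shares its genotype. Pairs of one genotype reach 44 genes and pairs across genotypes range from 23 to 71, with the highest number for WT replicate 3 and p21-/- replicate 2.

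Among genes at 10 CPM or more, 12 to 32 differed over 2-fold between 2 WT libraries, 44 between the p21-/- libraries and 23 to 71 across genotypes. The 5 of them with the largest SD within WT were Kdm5d, Ddx3y, Fosb, Eif2s3y and Uty. Ddx3y, an RNA helicase of the Y chromosome, was at 89.7, 40.8 and 0.242 CPM in WT and at 0.234 and 55.5 CPM in p21-/- libraries. In each of the 4 Y-linked genes of the list, WT replicate 3 and p21-/- replicate 1 were the lowest libraries. Their summed level was 243 and 107 CPM in WT replicates 1 and 2, 133 CPM in p21-/- replicate 2, and under 1 CPM in WT replicate 3 and p21-/- replicate 1. The pools thus differed in their share of Y-linked RNA within each genotype, and the 4 genes had log2 differences from -1.03 to -0.66, with an adjusted p of 0.98 each in edgeR's quasi-likelihood test.

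Immediate-early genes, which respond within minutes to stimuli, also varied within genotypes. Fos was at 107, 321 and 3.69 CPM in WT and at 60.9 and 118 CPM in p21-/- libraries, and Fosb, its close relative, at 48.8, 115 and 0.363 CPM against 19.4 and 80.8 CPM. WT replicate 3 was thus the lowest of the 5 in both, and neither gene was called, with 95% intervals of -2.95 to 1.59 for Fos and of -2.34 to 2.09 for Fosb. The 29 genes summed to 1830, 2836 and 1050 CPM in WT and to 1299 and 2628 CPM in p21-/- libraries.

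The heat-shock gene Hspa1a, 5.88 Mb from Cdkn1a, showed both a gap between genotypes and a wide spread within WT. It was at 42.0, 67.3 and 7.20 CPM in WT and at 95.8 and 109 CPM in p21-/- libraries. The genotypes did not overlap, but the range within WT was wider than the gap between genotypes, and the log2 difference of 1.40 (95% interval 0.15 to 2.65) was not called (adjusted p = 0.98 in edgeR's quasi-likelihood test). The 12 tested heat-shock genes had a median of 0.11, down to -0.03 for Hspa8, with 2 unadjusted p-values under 0.05. Hspa1a had 1 of them. Its neighbour Hspa1b, also listed and 5.87 Mb from Cdkn1a, differed by 1.35 (95% interval 0.27 to 2.43).

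**Figure D5:**
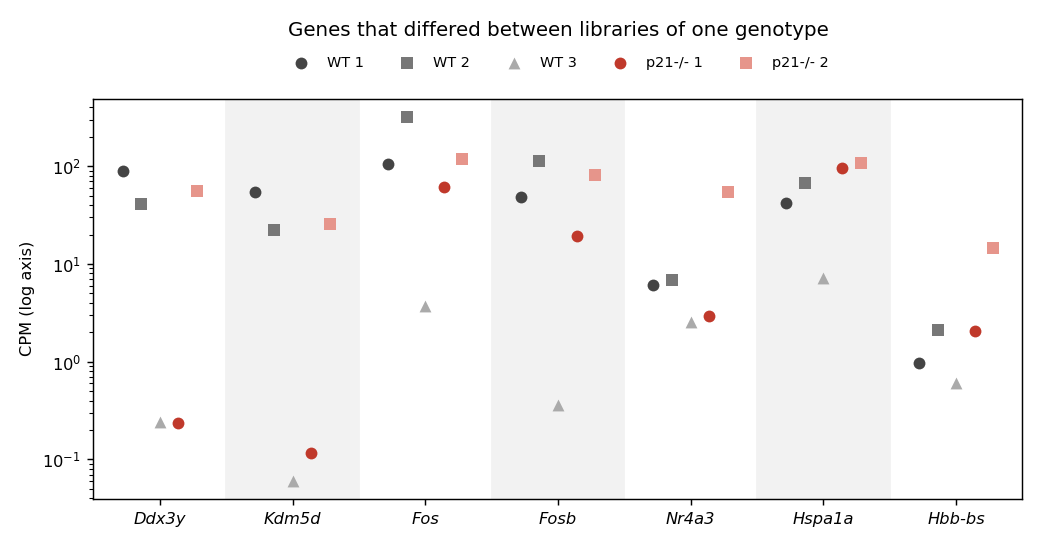
CPM on a log axis in each of the 5 libraries, 1 point per library, for genes of 4 lists whose values differed between libraries of one genotype. WT replicate 3 and p21-/- replicate 1 are near 0 for Ddx3y and Kdm5d, WT replicate 3 is lowest for Fos, Fosb, Nr4a3 and Hspa1a, and p21-/- replicate 2 is highest for Nr4a3 and Hbb-bs.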

How the data were processed

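RNA of sorted DN3 thymocytes was captured by poly-A and sequenced. The authors deposited whole-number counts of reads per gene without normalization. Per the labels, the submitters' processing notes name STAR 2.4.2a, featureCounts, limma and mm10. The counting settings, strand and multi-mapping reads included, are not given in the sources used here. Of the table, 1 column of per-sample values matched no sample label and was not used, and the Lmo2Tg columns were used by group.

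Genes with low counts were left out (edgeR 4.0.16 filterByExpr, minimum count 10, minimum total 15, R 4.3.3). All 9 genotype libraries were fitted together with TMM scaling and tested by edgeR's quasi-likelihood method, p-values being adjusted after Benjamini and Hochberg, with the 4 genotypes as groups, with the contrasts p21-/- against WT, Lmo2Tg;p21-/- against Lmo2Tg and their difference. Calls were made at an adjusted p under 0.05, with or without a change above 2-fold. Differences between libraries used log2 CPM with a prior count of 2. Per the study's methods the RNA came from pools of cells of several mice, and the labels number the replicates. The p-values measure the spread between such pools. Positions came from GENCODE M21 (98.2% of identifiers matched, GRCm38, the assembly mm10 names), and near-identical copies from blastn 2.17.0 (at least 200 bases, 99% identity, transcripts). Figures were drawn with matplotlib 3.10.9 in Python 3.11.15.

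Genes named are Cdkn1a, Trp53, all called genes, Prss41 (which the study names), the 5 of smallest p within 1 Mb of Cdkn1a, the highest and lowest member of each gene list and the 5 genes at 10 CPM or more with the largest SD within WT. Of these, 1 called gene and 1 list member are not reported here. Other genes given with values (among them Cdkn1b, Cdkn2a, the 4 just below the threshold, Nfkbia and the marker genes of the opening) were chosen after their values were seen. The comparison, its members and the gene lists were chosen with earlier results of these data known. Alternatives were DESeq2 1.42.0, limma-voom (limma 3.58.1), scaling by RLE, other filters, thresholds and a test against 2-fold, the 5 libraries alone, the replicate number as a block and each of the 5 libraries left out. Fits without chromosome 17 and with copies summed were added after seeing the data.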

Additional observations from a re-analysis of the deposited data

Results flagged for a closer look

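For 4 named genes, the response to p21 loss differed without and with the Lmo2 transgene at an adjusted p under 0.05. This was edgeR's quasi-likelihood test of the interaction, which 163 of 11840 tested genes (1.38%) passed. Besides Cdkn1a, these were Ccr7, Nr4a3 and Hspa8, each named as the lowest or highest member of its list in p21-/- against WT. That value is also a term of the interaction, so the choice of these genes was not independent of the test. Cdkn1a fell by 1.36 on the log2 scale without the transgene and fell by 2.92 with it, an interaction of -1.56 (standard error 0.27, adjusted p = 0.032). Its reads were 444 and 385 in Lmo2Tg and 61 and 58 in Lmo2Tg;p21-/- libraries, or 13.3% of Lmo2Tg by mean CPM, against 39.0% of WT in p21-/- cells. Over the other fits its adjusted p ranged from 2.0e-05 in DESeq2 to 0.13 without p21-/- replicate 2, and it was above 0.05 without each WT library.

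Ccr7, a chemokine receptor of mature T cells, was at 3.00, 2.86 and 3.69 CPM in WT and 1.99 and 1.39 CPM in p21-/- libraries and went the other way with the transgene, an interaction of 2.14 (adjusted p = 0.033). Nr4a3, a receptor-like factor induced by stimulation, had an interaction of -7.98 (adjusted p = 0.033), and without p21-/- replicate 2 it was -4.69 (adjusted p = 0.24). Its adjusted p was 0.17 by limma-voom and 0.056 to 0.090 without 1 of the WT libraries. Hspa8, a constitutive chaperone, changed by -0.03 without and by -0.70 with the transgene, an interaction of -0.66 (adjusted p = 0.040). For Ccr7 and Hspa8 the adjusted p without 1 of the WT libraries ranged from 0.059 to 0.097, and without p21-/- replicate 2 it was 0.17 for Ccr7 and 0.18 for Hspa8. The cause of these differences was not tested.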

How the results depend on the processing

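Over the alternatives, the genes called above 2-fold numbered 9 to 15, and 8 to 18 with 1 library left out. Exceptions were 2 by glmTreat and 2 without chromosome 17, whose own construction removes genes. At any fold, the 13 calls became 20 by DESeq2, 21 without the filter, 2 without chromosome 17 and 8 to 18 with 1 library left out (8 without p21-/- replicate 2, of which 7 were among the 13). Within 10 Mb of Cdkn1a they were 6 to 9 with 1 library left out. Cdkn1a then had log2 fold changes from -1.52 to -1.21 and lost its call without either p21-/- library. The interaction count of 95 above 2-fold (0.802% of genes) became 161 by DESeq2, 224 without the filter and 0 to 259 with 1 library left out. The causes were not tested.

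With the replicate number as a block, in a fit of the 5 libraries, 16 genes were called at any fold, 11 of them among the 13 (without Btbd9 and Gnptg), and 12 above 2-fold. The deviations of same-numbered libraries correlated at -0.24 and 0.30 for numbers 1 and 2, and no label ties the numbers, so they were not taken as pairs. Under the block the sign turned for Trp53 (0.030), Ccnf (0.011), Vpreb1 (0.17) and Hspa8 (0.0099), and by limma-voom for Fos (0.77) and Fosb (1.63), none of them called in that fit. Fos (-1.14, adjusted p = 0.016) and Hspa1a (adjusted p = 0.027) were called under the block, and Cpne5 too (adjusted p = 0.043).

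With 1 library left out, the sign also turned for genes with wide spread between libraries. Their log2 differences ranged from -0.14 to 0.028 for Trp53, -0.29 to 1.29 for Cdkn1c, -0.90 to 1.98 for Plk2, -0.30 to 0.013 for Ccnf, -0.55 to 0.17 for Vpreb1, -0.81 to 3.40 for Nr4a3, -1.26 to 0.70 for Fos, -0.094 to 0.0046 for Hspa8 and -0.16 to 0.88 for Ifit3. They ranged from -7.49 to 0.44 for Ddx3y, -7.69 to 0.18 for Kdm5d, -1.49 to 1.02 for Fosb, -8.85 to 0.27 for Eif2s3y and -11.03 to 0.25 for Uty, the lowest Y-linked values being fitted with p21-/- replicate 1, near 0, as the lone p21-/- library. A lone library is assumed to vary like the other groups. None of these was called without a library. Genes under 1 CPM in a library had no value under the stricter filter. Depth and 2 p21-/- libraries limit what can be seen: with 1 left out, 9670 to 10218 genes had an interval inside 2-fold.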
